A study of Homo sapiens with 24 samples.

Results

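The MYB family of transcription factors comprises MYB, MYBL1 (A-MYB) and MYBL2 (B-MYB), and it was followed here in 2 B-cell lymphoma lines exposed to inhibitors of SYK and of BET proteins. Its members were selected by gene symbol, which gave 3 genes with 1 row each among 25575 rows of the expression table. The list was chosen with falls of MYB under AZD and Ento+AZD already known. The values of MYB in AZD against DMSO, Ento+AZD against DMSO and Ento+AZD against Ento are therefore a description and carry no test, and so are the comparisons built from them. Of MYB, only Ento against DMSO and the difference between lines under DMSO are tested. All contrasts of MYBL1 and MYBL2 were tested.

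RNA was hybridised to 24 Clariom D arrays, which carry probes for the whole transcriptome, with 3 biological replicates in each of 8 groups. The line SU-DHL-4 derives from diffuse large B-cell lymphoma and the line DG-75 from Burkitt lymphoma. Each line was kept for 72 h in the solvent DMSO, in 1 µM Entospletinib (Ento), in 0.01 µM AZD5153 (AZD) or in both compounds at these doses (Ento+AZD). Ento inhibits SYK, a kinase that relays signals of the B-cell receptor, and AZD is a bivalent inhibitor of BET proteins, which read acetylated histones at promoters and enhancers. Each disease is represented by 1 line. Values are log2 intensities after RMA normalization, so that a difference of 1 is a change of 2-fold, and levels of different genes are not compared because their probes differ.

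MYB proteins bind DNA through tandem repeats near the amino terminus. MYB itself is a proto-oncogene that keeps blood progenitors dividing and is shut down as lymphocytes mature. MYBL1 is best known from meiosis in the testis and from germinal centre B cells, and MYBL2 is made in nearly all dividing cells. MYBL2 joins the MuvB complex in S phase and, with FOXM1, switches on genes needed for mitosis, whereas in resting cells MuvB is held with E2F4 or E2F5 and a pocket protein of the retinoblastoma family as the repressive DREAM complex.

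The promoters of MYB and MYBL2 are shown because the levels of these genes varied together across the arrays, as described further on. Both are from RefSeq (GRCh38.p14), on the plus strand, and cover the 250 bases before the annotated start of the gene, at chr6:135181058-135181307 for MYB and chr20:43666864-43667113 for MYBL2. Capitals mark the letters GGCGGGA, a core found in many sites of E2F factors, searched on both strands after the sequences had been seen.
MYB promoter: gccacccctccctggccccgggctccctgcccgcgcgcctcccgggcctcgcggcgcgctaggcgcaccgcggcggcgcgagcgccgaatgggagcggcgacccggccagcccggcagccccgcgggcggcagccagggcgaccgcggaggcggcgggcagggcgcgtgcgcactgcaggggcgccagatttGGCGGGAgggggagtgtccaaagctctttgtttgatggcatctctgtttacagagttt
MYBL2 promoter: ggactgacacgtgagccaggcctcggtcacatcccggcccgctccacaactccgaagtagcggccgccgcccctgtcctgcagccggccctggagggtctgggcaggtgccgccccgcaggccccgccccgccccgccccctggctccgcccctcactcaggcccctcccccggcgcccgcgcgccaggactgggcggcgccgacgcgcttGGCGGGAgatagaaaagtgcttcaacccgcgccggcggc
The capitals begin 58 bases before the start of MYB and 39 bases before that of MYBL2. The same letters were in 13.5% of 35116 promoters of this length. Neither promoter held TTTGAA, the cell cycle homology region, in either strand, nor CCAAT, which were in 13.3% and 32% of all promoters. Neither held CAACGG or CAACTG, letters bound by MYB proteins, nor the same with T in front, as in TAACGG and TAACTG. At least 1 of these 4 words was present in 21.1% of promoters. A match is a description of letters and not a binding site.

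The arrays resembled one another closely within groups, with correlations between replicates of 0.981 to 0.992 and array medians between 4.89 and 5.14. For 5 B-cell markers the means under DMSO ran from 8.35 (PAX5) to 12.09 (CD79A) in SU-DHL-4 and from 7.12 (MS4A1) to 11.32 (CD79A) in DG-75. The 4 T-cell markers lay between 1.86 (CD2) and 4.19 (CD3E) in SU-DHL-4 and between 1.46 (CD2) and 3.98 (CD3E) in DG-75. The 4 myeloid markers lay between 2.74 (LYZ) and 5.61 (CSF1R) in the former line, and between 2.64 (LYZ) and 5.72 (CSF1R) in DG-75. The 4 plasma cell markers ran from 2.55 (PRDM1) to 7.11 (TNFRSF17) in SU-DHL-4, where XBP1 was at 4.93, and from 2.83 (PRDM1) to 7.34 (XBP1) in DG-75, where TNFRSF17 was at 6.88. In DG-75 the average of these 5 B-cell markers was 8.89 to 9.19 on the DMSO arrays, 9.39 to 9.56 with AZD and 9.38 to 9.80 with Ento+AZD. The average of the germinal centre markers BCL6, MME and S1PR2 in DG-75 was 9.52 to 9.59 with DMSO, 9.02 to 9.27 with AZD and 9.03 to 9.42 with Ento+AZD, and in SU-DHL-4 the range of each treatment overlapped that of DMSO. Under Ento+AZD, XBP1 was called higher in SU-DHL-4 (1.25), CD79B higher in DG-75 (1.03) and TNFRSF17 lower in DG-75 (-1.47). The part of these markers in the results for the MYB family was not tested. In such bulk samples fewer cells of a type and less RNA per cell cannot be told apart. The SU-DHL-4 arrays of replicate 2 under Ento, AZD and Ento+AZD stood apart from their groups for several genes of the cell cycle. FOXM1, for instance, was 8.19 on that Ento array against 9.24 and 9.48 on the others, 7.58 on that AZD array against 8.47 and 8.51, and 6.41 on that Ento+AZD array against 8.13 and 8.27. The changes of MYB and the counts of called genes that rest on these arrays are given with and without them.

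The mean level of MYB was lower in both lines with AZD than with DMSO, and lowest with Ento+AZD. In SU-DHL-4 under DMSO the log2 values of MYB in replicates 1, 2 and 3 were 6.52, 6.90 and 7.55. Under Ento they were 6.76, 5.33 and 7.42. Under AZD they were 5.52, 5.14 and 5.97, and under Ento+AZD 4.64, 3.24 and 5.39. All 6 arrays with AZD were below all 3 with DMSO, while the Ento arrays overlapped those with DMSO and only replicate 2 was low. In DG-75 the values of MYB under DMSO were 9.25, 9.34 and 8.68, and under Ento 9.11, 9.34 and 8.73. Under AZD they were 7.35, 8.16 and 7.93, and under Ento+AZD 7.44, 7.78 and 7.50. The arrays of DG-75 thus fell into a high set without AZD and a low set with it, and the low set did not overlap the high one.

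**Figure D1:**
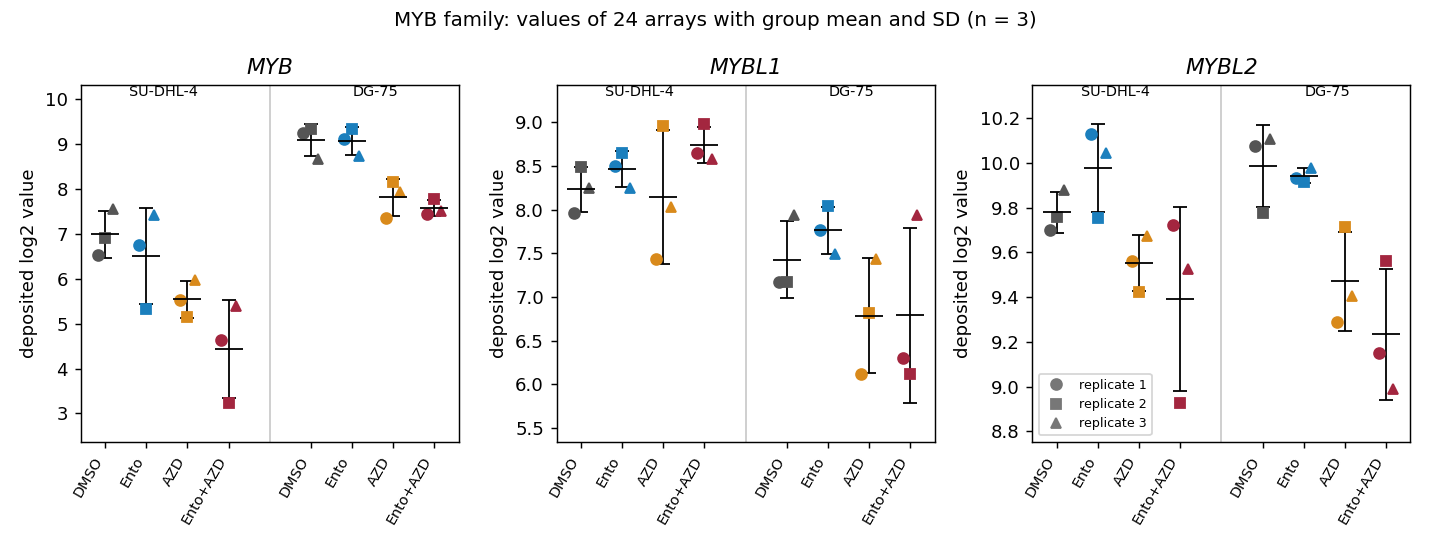
Deposited log2 values of MYB, MYBL1 and MYBL2 (y axis, a separate scale for each gene) on each of the 24 arrays by line and treatment (x axis). Symbols mark replicates 1 to 3, the horizontal line is the group mean and the bar is the SD (n = 3). MYB is lower in every group with AZD than in the DMSO group of its line.

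In SU-DHL-4 the mean of MYB went from 6.99 ± 0.52 (SD, n = 3) under DMSO to 5.54 ± 0.42 (SD, n = 3) under AZD, a log2 change of -1.45 that corresponds to 2.73-fold and was -1.65 without the AZD array of replicate 2. Under Ento+AZD it was 4.43 ± 1.09 (SD, n = 3), a change of -2.56 or 5.91-fold, which was rank 2 from the lowest of the 25575 rows. Against Ento the change was -2.08, and the differences between arrays of the same replicate number were -2.12, -2.09 and -2.03. The 3 replicates thus differed more in their levels, from 3.24 to 5.39 under Ento+AZD, than in the step from Ento to Ento+AZD. Without the Ento array of replicate 2 this change was -2.39, and without the Ento+AZD array of replicate 2 it was -1.77. The change against DMSO was -2.25 without the latter. In DG-75 the mean was 9.09 ± 0.36 (SD, n = 3) under DMSO, 7.81 ± 0.42 (SD, n = 3) under AZD and 7.57 ± 0.18 (SD, n = 3) under Ento+AZD. These changes were -1.28 (2.42-fold, rank 54 from the lowest) and -1.52 (2.86-fold, rank 32). The comparisons against DMSO share the same control arrays, so that they are not independent of one another. Calls required, from limma, a Benjamini-Hochberg adjusted p below 0.05 over all rows together with a log2 change of more than 1 in size. Among all rows the share called was 0.18% for AZD against DMSO in SU-DHL-4 and also 0.18% in DG-75. It was 1.19% for Ento+AZD against DMSO in SU-DHL-4, with 0.833% in DG-75. Against Ento, Ento+AZD called 0.0821% in SU-DHL-4, with 0.657% in DG-75. Nothing is read from these shares for MYB, since its changes in these comparisons chose the members.

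Ento alone gave MYB a change of -0.48 in SU-DHL-4 (95% interval -1.15 to 0.18, adjusted p = 0.694), where 0.0508% of all rows were called, and of -0.03 in DG-75 (-0.46 to 0.40, adjusted p = 1), where 0.00391% were. With 1 array left out the change in SU-DHL-4 ran from -0.79 (without DMSO replicate 1) to -0.07 (without DMSO replicate 2), and it was -0.18 without Ento replicate 2. As a description, Ento+AZD against AZD gave -1.12 in SU-DHL-4, with 3 of 3 same-numbered differences below 0. In this comparison 0.0274% of rows were called. The change was -0.80 without the Ento+AZD array of replicate 2. In DG-75 the same comparison gave -0.24 (-0.49 to -0.05 with 1 array left out), and limma called 0% of rows, with 1030 rows at an unadjusted p under 0.05.

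The baseline of MYB differed between the lines. Under DMSO the estimate for SU-DHL-4 minus DG-75 was -2.10 (SE 0.45, adjusted p = 0.00144) or 4.29-fold, and the values of the lines did not overlap. This test called 7.2% of all rows, and MYB was called while MYBL1 and MYBL2 were not. In the order of the 8 groups, DG-75 under DMSO and Ento came first and stood clear of the rest. All 4 groups of DG-75 had higher means than all 4 groups of SU-DHL-4, so that MYB in DG-75 after Ento+AZD (7.57) was still above the mean of SU-DHL-4 under DMSO (6.99), although 1 SU-DHL-4 value under DMSO, 7.55, lay within the range of the former. Neighbours further down the order overlapped.

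MYBL1 was called in no treatment contrast of either line. In SU-DHL-4 its log2 values in replicates 1, 2 and 3 were 7.96, 8.48 and 8.25 under DMSO and 8.50, 8.66 and 8.25 under Ento. Under AZD they were 7.44, 8.96 and 8.03, the widest spread of the line, and under Ento+AZD 8.65, 8.98 and 8.59. The Ento+AZD values all lay above those with DMSO. In DG-75 the values were 7.18, 7.17 and 7.94 under DMSO, 7.76, 8.04 and 7.49 under Ento, 6.11, 6.81 and 7.44 under AZD, and 6.30, 6.12 and 7.94 under Ento+AZD. Here replicate 3 under Ento+AZD kept the level of its DMSO array while the other two were low.

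The change of MYBL1 under Ento+AZD was 0.51 in SU-DHL-4 (SE 0.22, adjusted p = 0.324), with 3 of 3 same-numbered differences above 0. It was -0.64 in DG-75 (SE 0.35, adjusted p = 0.411), with 3 of 3 below 0, although that of replicate 3 was -0.0016, and it ran from -1.07 to -0.30 with 1 array left out. The response in SU-DHL-4 exceeded that of DG-75 by 1.15 (SE 0.45, 95% interval 0.21 to 2.08, adjusted p = 0.628), which was not called. In that contrast 0.0352% of rows were called. AZD alone gave -0.09 in SU-DHL-4 (adjusted p = 0.923) and -0.64 in DG-75 (adjusted p = 0.462). Against Ento, Ento+AZD gave 0.27 in SU-DHL-4 (adjusted p = 0.784) and -0.98 in DG-75 (adjusted p = 0.203). Without the Ento array of replicate 3 the latter was -1.50 and was called. Under DMSO the estimate for SU-DHL-4 minus DG-75 was 0.81 (SE 0.40, adjusted p = 0.191).

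MYBL2 was not called in any treatment contrast, and in DG-75 its values with AZD lay below those without it. In SU-DHL-4 its log2 values in replicates 1, 2 and 3 were 9.70, 9.76 and 9.88 under DMSO, 10.13, 9.75 and 10.04 under Ento, 9.56, 9.42 and 9.67 under AZD, and 9.72, 8.93 and 9.53 under Ento+AZD. The AZD values were all just below those with DMSO, whereas Ento+AZD replicate 1 overlapped them. In DG-75 they were 10.08, 9.78 and 10.11 under DMSO, 9.93, 9.92 and 9.98 under Ento, 9.29, 9.71 and 9.41 under AZD, and 9.15, 9.56 and 8.99 under Ento+AZD. In this line no array with AZD reached the lowest array without it.

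The change of MYBL2 in DG-75 under Ento+AZD was -0.75 (SE 0.18, 95% interval -1.14 to -0.37, 1.69-fold), with 3 of 3 same-numbered differences below 0. Its adjusted p of 0.0512 did not pass the threshold, and the change was below the fold required for a call. AZD alone gave -0.52 in this line (SE 0.18, adjusted p = 0.207), and Ento+AZD against Ento -0.71 (SE 0.18, adjusted p = 0.0763). In SU-DHL-4 the changes were 0.20 under Ento (adjusted p = 0.782), -0.23 under AZD (adjusted p = 0.649) and -0.39 under Ento+AZD (SE 0.16, adjusted p = 0.312). Without the Ento+AZD array of replicate 2 the last was -0.22. Against Ento it was -0.59 (adjusted p = 0.202). Between the lines under DMSO the estimate was -0.21 (95% interval -0.59 to 0.17, adjusted p = 0.528).

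**Figure D2:**
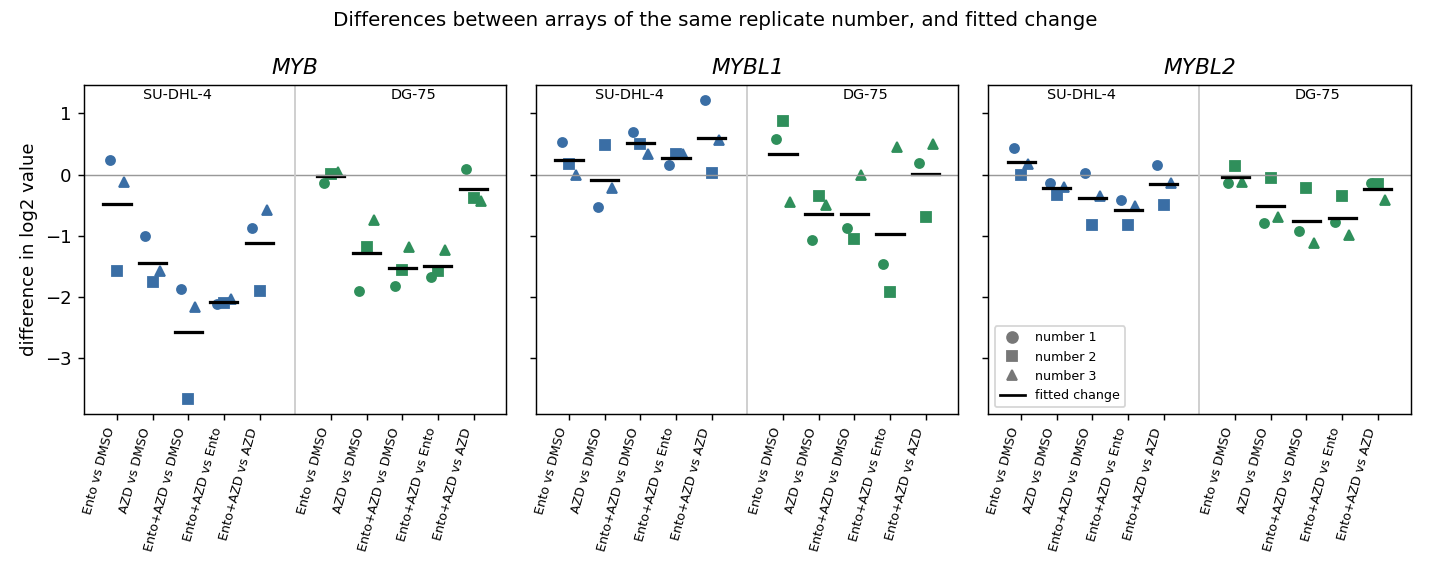
Differences in log2 value (y axis) for MYB, MYBL1 and MYBL2 in 5 comparisons per line (x axis). Symbols are differences between arrays of the same replicate number and the black line is the fitted change. For MYB in SU-DHL-4 the 3 differences of Ento+AZD from Ento coincide near -2.08, while those from DMSO range from -3.66 to -1.88.

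Over the 5 comparisons of both lines, limma called 0 of 20 contrasts of MYBL1 and MYBL2. Of the 20, 8 had an unadjusted p under 0.05, as did 2.81% to 16% of all rows depending on the comparison. These contrasts share genes and arrays and are not independent, so that no excess over all rows is read from their count.

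Neither MYBL1 nor MYBL2 was called for a difference between the lines in response or for a departure of Ento+AZD from the sum of the changes of the single agents. For MYBL2 the response to Ento+AZD in SU-DHL-4 minus that in DG-75 was 0.37 (95% interval -0.14 to 0.87, adjusted p = 0.865). For MYB, as a description, it was -1.05, and -0.63 without the SU-DHL-4 DMSO array of replicate 2. Limma called 0.00782% of rows for the difference under Ento and 0% for that under AZD, where 1576 rows had an unadjusted p under 0.05. The departure of MYBL1 from the sum was 0.36 in SU-DHL-4 (adjusted p = 0.961), where it ran from 0.06 to 0.66 with 1 array left out, and -0.33 in DG-75 (adjusted p = 1). That of MYBL2 was -0.36 in SU-DHL-4 (adjusted p = 0.960), from -0.51 to -0.19, and -0.19 in DG-75 (adjusted p = 1). That of MYB, as a description, was -0.63 in SU-DHL-4, where with 1 array left out it lay between -0.32 (when Ento+AZD replicate 2 was dropped) and -1.05 (when DMSO replicate 2 was). It was -0.21 in DG-75, from -0.46 to -0.02 with 1 array left out. Limma called 0% of rows for a departure in either line, with 1276 rows at an unadjusted p under 0.05 in SU-DHL-4 and 672 such rows in DG-75.

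The partners of MYBL2 in the MuvB complex were followed next. The gene lists here and below were chosen with earlier results of these data known. Their counts are therefore a description and not an independent test. Of 12 genes for the MuvB core and its partners, 1 was called in each line under Ento+AZD, in both cases lower, where 1.09% of all rows in SU-DHL-4 and 0.708% of those in DG-75 were called lower. In SU-DHL-4 it was FOXM1, the forkhead factor that joins MYBL2 and MuvB at mitotic genes. Its values were 9.10, 9.05 and 9.36 under DMSO and 8.13, 6.41 and 8.27 under Ento+AZD, so that all 3 were lower (-1.57, SE 0.25, adjusted p = 0.00963). The change was -1.22 without the Ento+AZD array of replicate 2 (adjusted p = 0.0512), and without the replicate number as a term the adjusted p was 0.152. For FOXM1 in DG-75 the change was -0.95 (adjusted p = 0.0221), below the fold required. The gene called in DG-75 was LIN9, a scaffold subunit of MuvB. It had values of 7.17, 7.09 and 7.20 under DMSO and 5.77, 5.79 and 6.51 under Ento+AZD, a drop in every replicate (-1.13, SE 0.23, adjusted p = 0.0334). For LIN9 in SU-DHL-4 the change was -0.95 (adjusted p = 0.178). For LIN54, the DNA-binding subunit, the SU-DHL-4 change was -0.51 (adjusted p = 0.313) and the DG-75 change -1.02 (adjusted p = 0.0517). For RBBP4, a histone-binding subunit, the changes were -0.05 (adjusted p = 0.935) and -0.17 (adjusted p = 0.542). The median of the list under Ento+AZD was -0.13 in SU-DHL-4, with -0.23 in DG-75, beside -0.08 and -0.07 over all rows. Leaving out the DMSO or the Ento+AZD array of replicate 2 in SU-DHL-4 left 0 of the 12 called, and LIN9 in DG-75 was not called without DMSO replicate 1, 2 or 3 or Ento+AZD replicate 1 or 2, nor with array medians subtracted.

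Genes for G2 and mitosis that MYBL2, MuvB and FOXM1 are known to switch on were called lower under Ento+AZD in both lines. As the list was chosen with earlier results known, the shares of all rows beside its counts give scale only. Under Ento+AZD in SU-DHL-4, 18 of 26 were called lower, beside 1.09% of all rows called lower in this comparison. In DG-75, 8 of 26 were called lower, beside 0.708% of all rows. Fewer were called in DG-75 with quantile normalization or with array medians subtracted, as given in the closing section. The 18 calls rested on the replicate number as a term of the fit, since 0 of 26 were called in SU-DHL-4 without it. The study's methods name a batch term without saying what the batch was, and the replicate number stands for it here. At an adjusted p under 0.05 without the fold threshold, 22 of 26 passed in each line, as did 2.36% of all rows in SU-DHL-4 and 2.39% of those in DG-75. CDK1, the kinase that starts mitosis, had values of 9.25, 8.99 and 9.59 under DMSO and 8.23, 6.56 and 8.25 under Ento+AZD in SU-DHL-4, a change of -1.60 (adjusted p = 0.00815), which was -1.34 without the Ento+AZD array of replicate 2 (adjusted p = 0.0550). In DG-75 it had 9.72, 9.58 and 9.91 under DMSO and 8.02, 8.60 and 8.77 under Ento+AZD, a change of -1.27 (adjusted p = 0.0182). The groups of CDK1 did not overlap in either line. The called genes in both lines also included KIF20A, a kinesin of cytokinesis (-1.82 in SU-DHL-4, with -1.39 in DG-75), CDC25C, the phosphatase that activates CDK1 (-1.67 and -1.30), CCNA2, cyclin A (-1.57 and -1.03), UBE2C, a conjugating enzyme of the anaphase-promoting complex (-1.46 and -1.03), ASPM, a spindle pole protein (-1.35 and -1.01), AURKA, the mitotic kinase Aurora A (-1.33 and -1.05), and HMMR, a spindle protein (-1.14 and -1.08).

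A further 10 genes were called in SU-DHL-4 while their DG-75 change was under the fold threshold. NEK2 (-1.38, against -0.98 in DG-75), PLK1 (-1.39, against -0.86), AURKB (-1.35, against -0.66) and BUB1B (-1.14, against -0.93) are kinases of centrosome, spindle and checkpoint. TOP2A (-1.38, against -0.75) is the topoisomerase of condensing chromosomes. The others were CCNB2 (-1.33, against -0.95), KIF23 (-1.30, against -0.84), CENPF (-1.21, against -0.94), TPX2 (-1.19, against -0.96) and CENPE (-1.12, against -0.76). In DG-75 the adjusted p of AURKB was 0.0525 and that of TOP2A 0.0512, while the other 8 had one under 0.05. Whether these genes differed between the lines was not tested. The median change of the 26 genes in SU-DHL-4 was -0.33 under Ento, -0.78 under AZD and -1.25 under Ento+AZD, against -0.06, -0.08 and -0.08 over all rows. In DG-75 it was -0.02, -0.77 and -0.95, against 0.00, -0.06 and -0.07. The medians of SU-DHL-4 include the replicate 2 arrays and were not computed without them. On its Ento arrays CDK1, for instance, was 9.26, 7.70 and 9.42, against 9.25, 8.99 and 9.59 under DMSO. KIF20A was 8.62, 7.06 and 8.86 there, against 8.67, 8.40 and 8.95, so that both were clearly low only in replicate 2. Under AZD all 26 had a change below 0 in both lines, where 63.9% and 60.5% of all rows did. Limma called 0 of 26 in either line, with 26 of 26 at an unadjusted p under 0.05 in each, as had 11.5% of all rows in SU-DHL-4 and 13.8% of those in DG-75. Subtracting array medians moved the median of all rows in SU-DHL-4 by 0.118 to 0.13. Without the Ento+AZD array of replicate 2 in SU-DHL-4 the number called under Ento+AZD was 0, without the DMSO array of replicate 2 it was 1, without DMSO replicate 3 it was 8 and without Ento+AZD replicate 3 it was 10. In DG-75 it was 0 when either array of replicate 1 was left out. It was 4 and 1 on omission of DMSO replicates 2 and 3, and 5 on omission of Ento+AZD replicate 2.

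**Figure D3:**
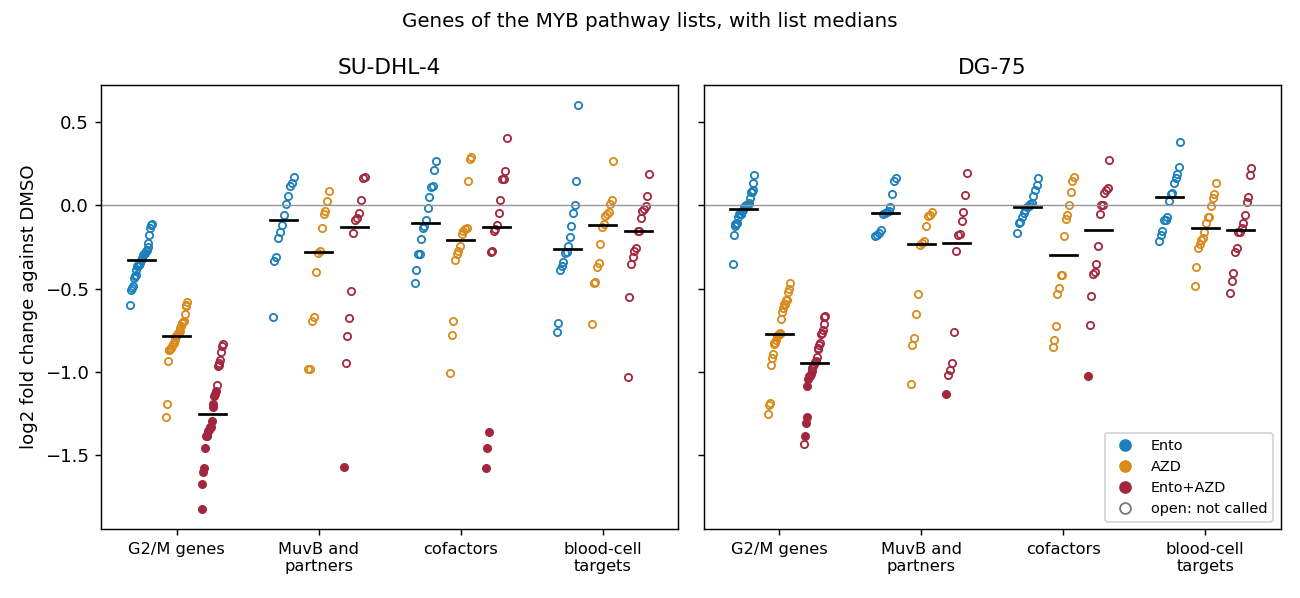
Log2 fold change against DMSO (y axis) of each gene of 4 lists (x axis) under Ento, AZD and Ento+AZD in the 2 lines. Filled points were called, open points were not, and the black line is the list median. The 26 G2/M genes lie below 0 in both lines under AZD and Ento+AZD, with 18 filled points in SU-DHL-4, with 8 in DG-75 under Ento+AZD.

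Of 14 cofactors and regulators of MYB proteins, 3 were called lower under Ento+AZD in SU-DHL-4 and 1 gene in DG-75, beside the 1.09% and 0.708% of all rows called lower. The count in SU-DHL-4 was 0 without DMSO or Ento+AZD replicate 2 and also without the replicate number as a term, and that in DG-75 was 0 without Ento+AZD replicate 1 or any single DMSO array, and also after quantile normalization or subtraction of array medians. CCNA2, whose product with CDK2 phosphorylates MYBL2, was called in both lines as given above. CDK2 itself had a change of -1.36 in SU-DHL-4 (adjusted p = 0.00884), and in DG-75 its change of -0.72 (adjusted p = 0.0391) stayed below the fold required. PIM1, a kinase reported to act with MYB, had values of 6.87, 6.65 and 7.66 under DMSO and 6.03, 4.62 and 6.17 under Ento+AZD in SU-DHL-4, a change of -1.46 (adjusted p = 0.00729). For PIM1 in DG-75 the change was -0.41 (adjusted p = 0.716). The acetyltransferases that serve MYB as coactivators were among the genes not called. For EP300 the changes were 0.16 (adjusted p = 0.738) in SU-DHL-4 and 0.00 (adjusted p = 0.997) in DG-75. For CREBBP they were 0.03 (adjusted p = 0.959) and 0.09 (adjusted p = 0.784).

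None of 14 genes known as targets of MYB in blood cells was called by limma under any treatment, and under Ento+AZD 3 of them in SU-DHL-4 and 2 of them in DG-75 had an unadjusted p under 0.05, as did 14% and 16% of all rows. For the survival factor BCL2 the changes were 0.19 (adjusted p = 0.674) in SU-DHL-4 and 0.18 (adjusted p = 0.798) in DG-75. For MYC they were -0.31 (adjusted p = 0.340) and -0.14 (adjusted p = 0.653). The median of these 14 genes under Ento+AZD was -0.15 in SU-DHL-4, with -0.15 in DG-75. The 7 other genes with MYB-like repeats had 0 called and 0 at an unadjusted p under 0.05 against DMSO under any treatment, with Ento+AZD medians of 0.08 and -0.07. The chromosomal neighbours of MYB and MYBL2, 3 and 4 genes, also had 0 called. Among them was HBS1L, separated from MYB by enhancers that act in erythroid cells, with changes of -0.41 (adjusted p = 0.352) in SU-DHL-4 and -0.56 (adjusted p = 0.103) in DG-75.

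The genes whose pattern was most like that of each member were taken by Pearson's r over the 24 arrays, after the mean of each line had been subtracted, among rows with a mean at or above the median of all rows. The points share lines, treatments and replicate numbers, so that r is a description. For MYB these were DTL (r = 0.982), the substrate receptor of a ubiquitin ligase active in S phase, LMNB1 (0.981), lamin B1, CHAF1B (0.978), a subunit of the chromatin assembly factor CAF-1, RFC5 (0.976), a subunit of the clamp loader of DNA replication, and CDK2 (0.976). DTL in SU-DHL-4 had 8.63, 8.87 and 9.52 under DMSO and 7.38, 6.07 and 8.01 under Ento+AZD, the same order of replicates as MYB. The r of MYB with DTL was 0.988 within SU-DHL-4 and 0.971 within DG-75. Spearman's rho was 0.986, and without the pair of arrays farthest from the median of MYB r was 0.971.

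With each group's mean subtracted, which removes the treatments, r of MYB with these 5 genes, chosen on the same arrays, was 0.942 to 0.966 over 24 arrays, and 0.962 to 0.992 within SU-DHL-4. Within DG-75 it was 0.671 to 0.835. In SU-DHL-4 MYB on the replicate 3 arrays lay above its group mean in all 4 treatments, by 0.43 to 0.97, and on the replicate 2 arrays below it, by a deviation of -1.18 to -0.09. The lowest r with MYB were those of LYRM4-AS1 (-0.900), an antisense transcript, TTLL3 (-0.875), a tubulin glycylase, and SLC2A11 (-0.870), a sugar transporter.

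MYBL2 and MYB varied together across the arrays, while the r of MYBL1 with either was at most 0.15 over all arrays. The r of MYB with MYBL2 was 0.807 over 24 arrays, 0.842 within SU-DHL-4 and 0.862 within DG-75, with a rho of 0.785. It was 0.762 without the pair of arrays farthest from the median of MYB. With group means subtracted it was 0.814 within SU-DHL-4 and 0.273 within DG-75. The r of MYB with MYBL1 was 0.05 over 24 arrays, -0.46 within SU-DHL-4 and 0.56 within DG-75. It was 0.24 without the pair of arrays farthest from the median of MYB, and -0.12 without the pair farthest from that of MYBL1. With group means subtracted it was -0.39 within SU-DHL-4, with 0.06 within DG-75. MYBL1 with MYBL2 had 0.15 over 24 arrays, -0.34 within SU-DHL-4 and 0.40 within DG-75, with 0.53 on omission of the pair of arrays farthest from the median of MYBL2 and 0.03 on omission of the pair farthest from that of MYBL1. With group means subtracted it was below 0 in both lines, at -0.39 within SU-DHL-4 and -0.27 within DG-75. Of the 26 G2/M genes, 25 had an r above 0.8 with MYB, from 0.758 (ECT2) to 0.959 (TPX2), where 6.73% of rows at or above the median expression did. With MYBL2 19 of 26 did, from 0.727 (ECT2) to 0.872 (BIRC5), where 2.87% of rows did, and with MYBL1 0 of 26 did, with a median r of 0.04.

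The genes most like MYBL2 were SHCBP1 (r = 0.927), a protein of the midbody, RFC3 (0.913), another subunit of the clamp loader, CCT5 (0.907), a subunit of the chaperonin for actin and tubulin, CYB5B (0.900), a cytochrome of the outer mitochondrial membrane, and HCFC1 (0.897), a cofactor of E2F proteins. Its lowest r were with TM7SF2 (-0.842), a sterol reductase, SIAE (-0.830), an enzyme that removes acetyl groups from sialic acid, and TP53INP1 (-0.824), a gene induced by p53. The genes most like MYBL1 were others. They were PTK2 (r = 0.893), focal adhesion kinase, RGPD2 (0.865), a relative of the nuclear pore protein RANBP2, SETDB2 (0.854), a putative histone methyltransferase, MTA3 (0.835), a subunit of the NuRD complex expressed in germinal centres, and URGCP (0.817). RGPD2 belongs to a family of near-identical copies, so that its level is uncertain. For PTK2, r was 0.699 within SU-DHL-4 and 0.960 within DG-75. The lowest r with MYBL1 were those of MIR4695 (-0.834), HSP90B2P (-0.812) and CZIB (-0.809).

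**Figure D4:**
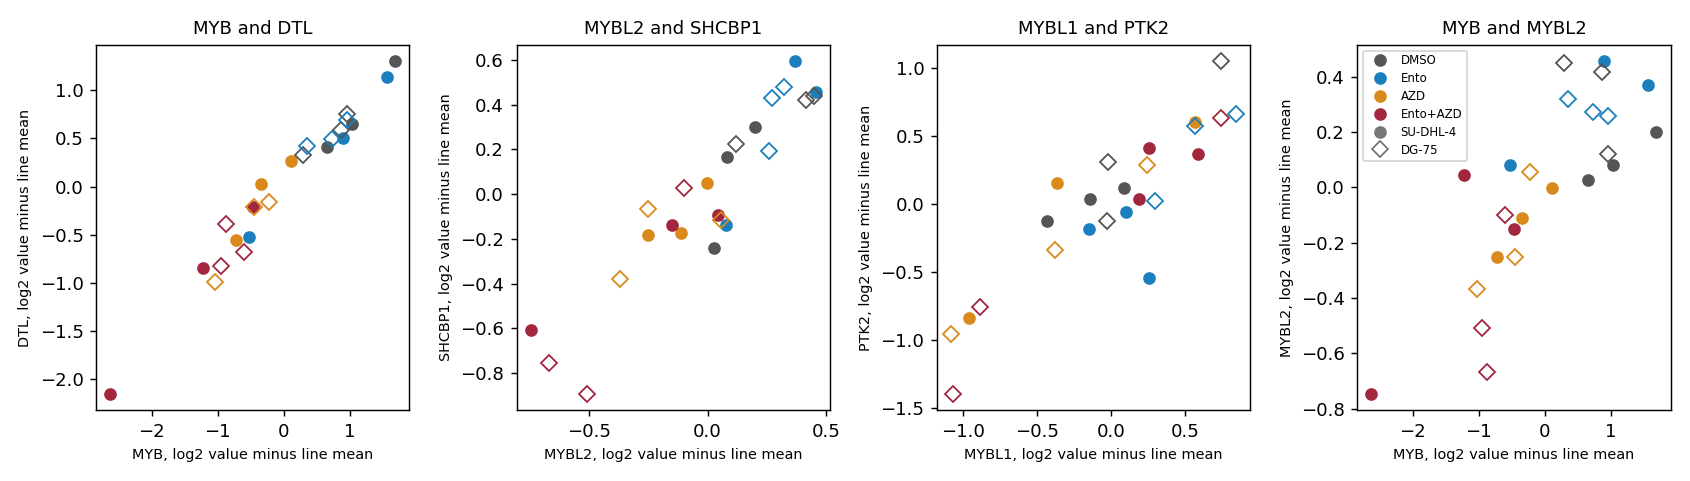
Log2 value minus the line mean on the 24 arrays for MYB and DTL, MYBL2 and SHCBP1, MYBL1 and PTK2, and MYB and MYBL2 (x and y axes). Filled circles are SU-DHL-4, open diamonds are DG-75 and colours are treatments. The points of MYB and DTL lie close to a line (r = 0.982), and those of MYB and MYBL2 scatter more widely (r = 0.807).

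The promoters of the genes most like each member and of the G2/M and MuvB lists were searched for the same letters as above. For the 5 genes most like MYB 5 promoters of 4 genes were found, and GGCGGGA was in those of CHAF1B and RFC5. For the genes most like MYBL2 4 promoters were found, and 1 held it, that of CYB5B. For the G2/M list 27 promoters were found, which belong to 21 of the 26 genes, and 4 held GGCGGGA. The word TTTGAA was in 14 of these 27, or 51.9%, which belong to 12 genes, against 13.3% of all promoters. CCAAT was in 22, or 81.5%, which belong to 19 genes, against 32%. The G2/M list was made of known targets of MYBL2, MuvB and FOXM1, so that its shares describe the list and not the response to treatment. The words bound by MYB proteins were in 9 of the 27, or 33.3%, against 21.1% of all promoters, and in 0 of the 5 promoters of the genes most like MYB. For the genes most like MYBL1 5 promoters of 3 genes were found. Of these, 2 held such a word, those of MTA3 and URGCP, and 0 held GGCGGGA. For the MuvB list 18 promoters of 10 genes were found, and 10 of them, of 8 genes, held GGCGGGA, while 2 held a word bound by MYB proteins.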

How the data were processed

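The authors deposited 1 table of log2 expression values for 24 Clariom D arrays, made by RMA normalization, with probes mapped to genes through affycoretools and the transcript cluster annotation package, as their methods state. The genome build and versions of these tools are not given in the sources used here. The number of arrays limits the precision.

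Samples were grouped and numbered by their labels. Contrasts were fitted to the deposited values in R 4.3.3 with limma 3.58.1, each line on its own with treatment and replicate number as terms, the latter for a batch term that the study's methods name without defining. Differences between lines came from fits of all 24 arrays, with replicate number within line as a term for responses and without it for levels under DMSO. Benjamini-Hochberg adjustment ran over 25575 rows, and calls needed an adjusted p below 0.05 with a log2 change of more than 1 in size. A symbol with several rows was represented by the row with the highest mean. The calculations were tested on simulated data. The members and gene lists were chosen with earlier results of these data known. Named were the members, called genes of the lists, 9 genes fixed by name and, for each member, the 5 symbols with the highest r and the 3 with the lowest. Results of some markers are left out. Alternatives were a fit with no replicate term, a joint fit of both lines, fits of the 2 groups compared, other scalings, omission of genes under the median expression, a prior variance by expression, no fold minimum, 1 row per symbol and omission of each array. Values of r with group means subtracted or without the farthest arrays, the direction of the G2/M genes under other scalings, and the changes of named list genes without replicate 2 or the replicate term, were added after seeing the data. Promoter sequences were from RefSeq.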

Additional observations from a re-analysis of the deposited data

How the results depend on the processing

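Of 357 values of the members under settings other than the omission of an array, 354 kept their direction and, where tested, their side of the threshold, although most were uncalled or not tested. The exceptions were uncalled values of MYBL1, for AZD against DMSO in SU-DHL-4 (0.070 with quantile normalization and 0.030 with array medians subtracted) and for Ento+AZD against AZD in DG-75 (-0.025 with quantile normalization). The replicate numbers had a correlation of deviations over 0.1 in 12 of 18 same-numbered pairs in SU-DHL-4 and in 7 of 18 in DG-75, and 9 and 8 of 12 arrays correlated best with their own number, which does not establish that a number marks a shared culture or day. The replicate number was kept as a term for the batch in the study's methods, which do not say what that batch was. Without the replicate block the called G2/M genes under Ento+AZD numbered 0 in SU-DHL-4, against 18 with it, and those of the MuvB and cofactor lists there numbered 0, against 1 and 3. In DG-75, where 8 were called, the count was 3 with quantile normalization, 3 with array medians subtracted and 22 with no fold minimum. The cause was not tested.

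With 1 array left out, 359 of 378 values of the members kept direction and call. In DG-75 the value of MYBL1 for the step from Ento to Ento+AZD ranged from -1.50, where it was called, to -0.64. Uncalled values crossed 0 for Ento against DMSO in DG-75 (MYB from -0.19 to 0.14, MYBL2 from -0.24 to 0.061) and for MYBL1 under AZD in SU-DHL-4 (from -0.39 to 0.21). They also crossed 0 for Ento+AZD against AZD (MYBL1 in DG-75 from -0.42 to 0.34, MYBL2 in SU-DHL-4 from -0.31 to 0.0082), for the departure from the sum in DG-75 (MYBL1 from -0.86 to 0.0047, MYBL2 from -0.35 to 0.0032) and for the difference between lines (MYBL1 under Ento from -0.62 to 0.19, MYB under AZD from -0.48 to 0.25). The called G2/M genes ranged from 0 to 21 in SU-DHL-4 and from 0 to 6 in DG-75. Among the counts of called genes in the lists, 36 were 0. For the 6 above 0, 15 of 54 values under other settings and 23 of 36 with 1 array left out moved by over 1.5 times. With 3 arrays a group, changes in genes of wide spread such as MYBL1 in DG-75 are weakly bounded.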
